A study of Saccharomyces cerevisiae with 16 samples.

Results

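The mRNAs described here encode enzymes of amino acid biosynthesis in the budding yeast Saccharomyces cerevisiae. They include the HIS, ARG, LEU, ILV, TRP, ARO, LYS, HOM, THR, SER, GLN and ASN genes of the list, together with BAT1, BAT2, MET6, CYS3 and CYS4. All 58 were found among the 5818 genes of the footprint table, and the remaining 5760 genes served as the comparison. By pathway, 7 belonged to histidine, 7 to arginine, 11 to branched-chain amino acids, 11 to aromatic amino acids, 7 to lysine, 5 to threonine and homoserine, and 10 to serine, the amides and the sulfur amino acids.

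The study sequenced the stretches of mRNA that fixed small ribosomal subunits (40S) protect from RNase I, with or without prior selection of subunits that carry an initiation factor. Factor-bound 40S were pulled down through a FLAG tag on eIF3a (gene TIF32, strain SY182), eIF3c (NIP1, strain H25) or eIF2β (SUI3, strain SY194), with 1 library each. Unselected 40S came from the same 3 strains, as libraries 1-1, 1-2 and 1-3, so every library carried a tagged factor in its cells and each factor, strain and library number coincide. All cells grew in the rich medium YPD at 30 °C and were fixed with 0.8% formaldehyde on ice for 1 h, and fragments of about 18 to 85 nt were sequenced. The sample labels give no allele of these strains besides the tag, and the count table heads the eIF2β column as eIF2α. The labels do not say whether the 2 libraries of a strain came from separate cultures.

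Yeast builds every amino acid that protein needs, mostly by linear chains of dedicated enzymes. Many of these genes are targets of Gcn4, the transcription factor of general amino acid control, and single branches have regulators of their own, such as the arginine and lysine pathways. In rich medium the products are supplied from outside. On an mRNA, 40S footprints in the 5′ UTR come from scanning subunits and those at the start codon from subunits that have reached the site of initiation. eIF3 is the large scaffold of the initiation complex, and eIF2 delivers the initiator tRNA.

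The 6 libraries held 3403297 (eIF3a), 4440991 (eIF3c) and 4486412 (eIF2β) counts for factor-bound 40S, and 2800652, 1595793 and 1891531 counts for unselected libraries 1-1, 1-2 and 1-3. The 58 mRNAs took 2.06%, 1.74% and 2.57% of the factor-bound and 1.83%, 1.54% and 2.2% of the unselected libraries. Levels below are CPM, counts scaled to the total of the same area over all genes after TMM normalisation. They are not divided by length. Counts of mRNA were not analysed here, so more mRNA and more subunits on each mRNA cannot be told apart.

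Footprints of these mRNAs lay further toward the 5′ end in factor-bound libraries. The 5′ UTRs held 28.9%, 27.7% and 38.4% of their footprints on eIF3a-, eIF3c- and eIF2β-bound 40S, against 15.8%, 15.6% and 15.7% in the unselected libraries. Start codons held 53.2%, 54.6% and 48.8% in the factor-bound libraries, against 48.3%, 44.3% and 43.9% in the unselected ones. Coding regions held 16.9%, 15.9% and 11.9% with a factor and 31.6%, 35.6% and 36.4% without selection. Stop codons held 0.352% ± 0.0852 (SD, n = 3) with a factor and 1.87% ± 0.111 (SD, n = 3) without selection, and 3′ UTRs 0.813% ± 0.404 (SD, n = 3) and 2.39% ± 0.278 (SD, n = 3). The 95% Wilson intervals were narrow, from 38.1% to 38.7% for the 5′ UTR share on eIF2β-bound 40S and from 15.1% to 16% in unselected library 1-2, and cover counting error only. In each of the 5 areas the factor-bound libraries all lay on the same side of the unselected ones, but 3 against 3 libraries cannot go below an exact two-sided permutation p of 0.1.

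In summed counts, a larger part of the footprints of these mRNAs than of other genes fell in the 5′ UTR. It averaged 31.7% ± 5.83 in factor-bound and 15.7% ± 0.117 in unselected libraries for the 58 mRNAs (SD, n = 3 each), against 20.6% ± 3.54 and 9.4% ± 0.404 for all other genes. The start codon share was lower than that of other genes, at 52.2% ± 3.04 in factor-bound and 45.5% ± 2.42 in unselected libraries, against 62% ± 0.636 and 54.5% ± 2.92 for all other genes. ILV5, GLN1, ILV2, ARO4 and ARO8 together held 52.5% to 55.3% of the 5′ UTR footprints of the 58 mRNAs in factor-bound and 50.6% to 55.9% in unselected libraries. The median mRNA of the 58 had 14.2% ± 3.45 of its own footprints in the 5′ UTR in factor-bound and 6.71% ± 0.895 in unselected libraries. The summed shares rest largely on the mRNAs named above, and the same median was not computed for other genes. The summed difference therefore need not hold for the typical mRNA of the list.

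**Figure D1:**
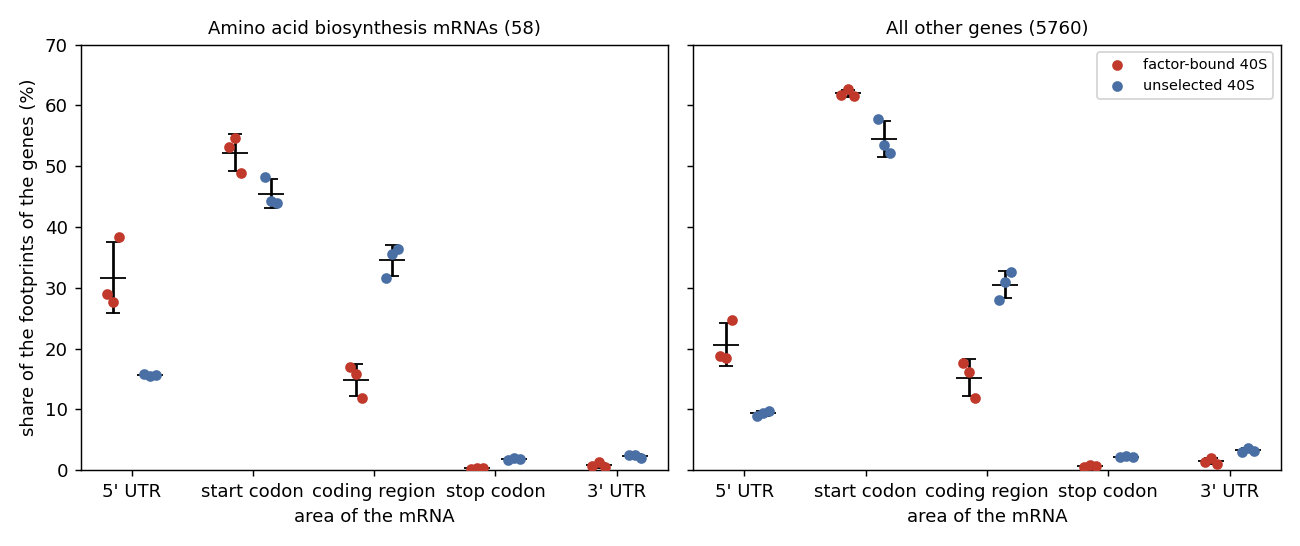
Share of footprints in each of the 5 areas (y axis, percent), for the 58 amino acid biosynthesis mRNAs (left panel) and all other genes (right panel). Points are libraries and bars the mean ± SD of 3 factor-bound (red) and 3 unselected (blue) libraries. The 5′ UTR points of the left panel lie at 27.7% to 38.4% with a factor and at 15.6% to 15.8% without selection.

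The pathways differed in this distribution. Aromatic and branched-chain mRNAs had the largest 5′ UTR shares, 40.3% ± 4.1 and 39.5% ± 8.98 in factor-bound libraries, against 22.9% ± 2.02 and 18.5% ± 1.65 in unselected ones (SD, n = 3 each). Lysine mRNAs had 10.1% ± 2.16 in factor-bound and 4.95% ± 0.914 in unselected libraries. Leaving out ARO4 and ILV5, which held most 5′ UTR footprints of these pathways, gave 38.5% ± 3.89 and 51% ± 10.4 in factor-bound libraries, against 20% ± 2.17 and 20.2% ± 2.32 in unselected ones. Without LYS4 the lysine share was 6.48% ± 1.82 in factor-bound and 3.27% ± 1.07 in unselected libraries. Histidine mRNAs summed to a coding region share of 35.5% ± 2.18 with a factor, against 43.8% ± 3.63 without selection. HIS1 carried much of it, and without HIS1 the share was 20% ± 4.11 in factor-bound and 39% ± 3.88 in unselected libraries. These omissions were chosen after the data were seen. Those of the serine, amide and sulfur group had 11.7% ± 3.18 of their footprints in coding regions with a factor and 32.6% ± 1.95 without selection.

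Single mRNAs spanned a wide range of 5′ UTR footprints per start codon footprint. Among the 42 with at least 50 start codon counts in every unselected library, the median ratio was 0.256 in factor-bound and 0.158 in unselected libraries, against 0.171 and 0.11 over the 1048 genes of the table that met the same minimum. ILV2, the catalytic subunit of acetolactate synthase (YMR108W, chromosome XIII, 484084 to 486147), had the highest, with 4.56, 4.15 and 6.38 on eIF3a-, eIF3c- and eIF2β-bound 40S and 2.14, 2.87 and 2.04 in the unselected libraries. LEU4, an alpha-isopropylmalate synthase, had 3.62 ± 0.305 in factor-bound and 1.5 ± 0.131 in unselected libraries (SD, n = 3 each). ARO8, an aromatic aminotransferase, had 1.46 ± 0.343 in factor-bound and 1.68 ± 0.409 in unselected libraries (SD, n = 3 each), so its groups overlapped. TRP4, the anthranilate phosphoribosyltransferase, had 3.28 ± 0.422 in factor-bound and 1.59 ± 0.25 in unselected libraries (SD, n = 3 each), with no overlap.

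At the low end, ILV3, the dihydroxyacid dehydratase, was listed at 0 in the 5′ UTR of all 6 libraries. HIS3, the imidazoleglycerol-phosphate dehydratase, had 1, 0 and 2 counts there in the factor-bound libraries and 0 in each unselected one, beside 167, 158 and 231 start codon counts in the factor-bound and 192, 89 and 139 in the unselected libraries. TRP5, tryptophan synthase, had a ratio of 0.048 ± 0.0125 in factor-bound and 0.0152 ± 0.00645 in unselected libraries (SD, n = 3 each). SER3, a phosphoglycerate dehydrogenase, was listed at 0 in both the 5′ UTR and the start codon area of all 6 libraries. Over the whole table, 1059 genes had no 5′ UTR count and 503 no start codon count, and the definition of each gene's areas was not given in the sources used here.

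**Figure D2:**
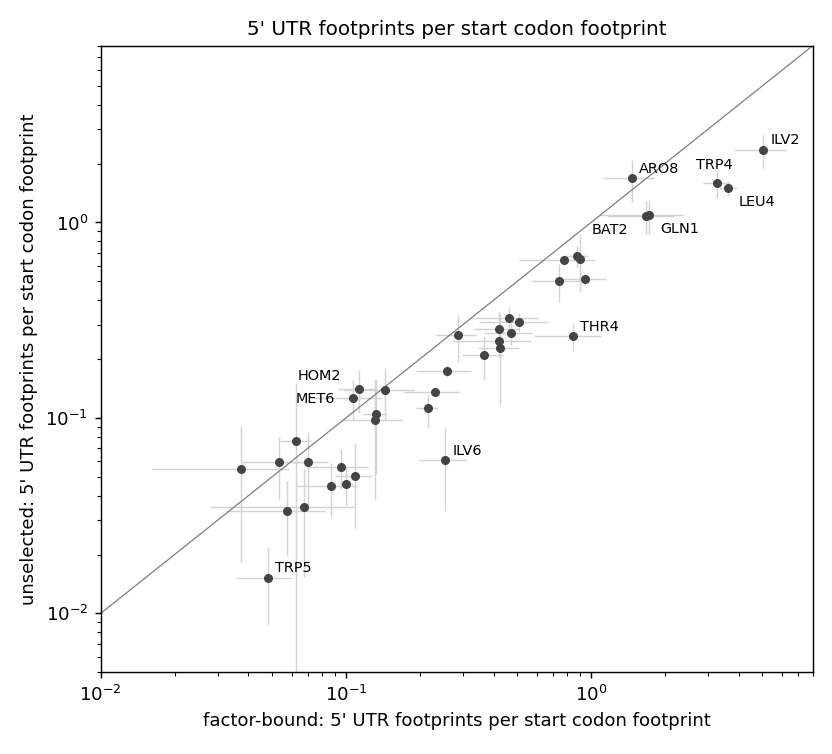
Ratio of 5′ UTR to start codon footprints for mRNAs of the list with at least 50 start codon counts in every unselected library, in factor-bound (x axis) and unselected (y axis) 40S, both on log scales. Points are means and grey bars SDs over 3 libraries, and the line marks equality. ILV3 and HIS3 are not drawn because their ratio in unselected libraries was 0. Points range from TRP5, at 0.048 and 0.0152, to ILV2, at 5.03 and 2.35, and most lie below the line.

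For 4 of these mRNAs the authors' deposited list of cap sites gave the 5′ end, which fixes the length of the leader on build R64. The cap of ILV2 (chromosome XIII, position 483844) lay 240 nt before its first coding base. That of CYS3, cystathionine gamma-lyase (chromosome I, 130694), lay 105 nt before it. That of TRP2, anthranilate synthase (chromosome V, 337866), lay 83 nt before it, and that of ARG1, argininosuccinate synthetase (chromosome XV, 219131), 80 nt before it. ILV2, with the longest of these leaders, had 2331, 2722 and 4923 counts in the 5′ UTR on factor-bound 40S and 851, 431 and 713 counts in the unselected libraries. TRP2 had 234, 271 and 465 counts in the 5′ UTR on factor-bound 40S and 78, 49 and 63 in the unselected libraries. CYS3 had 1100, 1128 and 1808 counts there on factor-bound 40S and 482, 227 and 314 in the unselected libraries. ARG1, with the shortest of these leaders, had 391, 266 and 1770 on factor-bound 40S and 132, 41 and 235 in the unselected libraries.

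ILV5, the acetohydroxyacid reductoisomerase (YLR355C), had the most footprints of the list by CPM. In the start codon area it had 2932, 2141 and 2875 CPM on eIF3a-, eIF3c- and eIF2β-bound 40S, against 2341, 1758 and 2186 CPM in the unselected libraries. GLN1, glutamine synthetase, had 760 ± 99.7 CPM in factor-bound and 628 ± 116 CPM in unselected libraries (SD, n = 3 each), and HOM6, homoserine dehydrogenase, 579 ± 109 and 603 ± 120 CPM. LYS20 had 229 ± 61.9 CPM in factor-bound and 347 ± 107 CPM in unselected libraries, and HIS1 353 ± 115 and 394 ± 151 CPM. In all 5 the groups overlapped.

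The levels of many of these mRNAs differed between the 3 tagged strains, and at start codons the factor-bound and unselected libraries of a strain often shared their rank. In the start codon area the strain term of the edgeR fit with library number as a block passed an adjusted p of 0.05 for 32 of 56 tested mRNAs, against 13.5% of all 3868 genes tested. In the 5′ UTR it passed for 18 of 49, against 12.8% of all genes, and in the coding region for 20 of 58, against 3.92% of all genes. At start codons 55 of the 58 mRNAs had at least 10 counts in every library, against 2585 of 5818 genes. The shares that passed depend on counts and were not matched for them. The distance between the highest and the lowest strain had a median of 0.65 on the log2 scale at start codons of these mRNAs and 0.48 over all genes, and was above 1 for 35.7% of these mRNAs and 13.9% of all genes. Of 55 mRNAs with at least 10 start codon counts in every library, 33 ranked the strains alike in factor-bound and unselected libraries, 60%, against 30.8% of 2585 genes. In coding regions 23 of 57 did, 40.4%, against 21.5% of 3777 genes, but in 5′ UTRs 9 of 35 did, 25.7%, against 29.9% of 1235 genes. This test was added after the data were seen. Each strain gave 2 libraries, so its p-values measure the spread between libraries and not between cultures of a strain, and strain, tag and culture cannot be told apart.

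The arginine mRNAs showed it most evenly. All 7 passed at the start codon, with a median distance of 2.1 on the log2 scale, and in all 7 the highest level was in strain SY194 in both kinds of library. ARG1 had 468, 257 and 1248 CPM in the start codon area on eIF3a-, eIF3c- and eIF2β-bound 40S, against 293, 147 and 1113 CPM in unselected libraries 1-1, 1-2 and 1-3. Both SY194 libraries lay above the other 4. ARG7, the mitochondrial ornithine acetyltransferase, spanned the widest range of the group, with 23.1, 8.72 and 68.6 CPM in factor-bound and 53.2, 16.2 and 98.4 CPM in unselected libraries. ARG3, ARG4, ARG5,6 and ARG8, which encode other steps toward arginine, differed by 2.1, 1.73, 1.71 and 1.8 on the log2 scale between their highest and lowest strain. In the coding region 6 of the 7 arginine mRNAs passed, all but ARG8, and in the 5′ UTR all 5 tested did.

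The lysine mRNAs differed in another direction. All 7 passed at the start codon and had the same order of strains in factor-bound as in unselected libraries, but the highest strain was SY182 for 5 of them and SY194 for the other 2, LYS2 and LYS21. LYS9, the saccharopine dehydrogenase that forms saccharopine, had 413, 222 and 162 CPM on eIF3a-, eIF3c- and eIF2β-bound 40S, against 364, 149 and 109 CPM in unselected libraries 1-1, 1-2 and 1-3. LYS2, the alpha-aminoadipate reductase, had 140, 85.8 and 149 CPM in factor-bound and 93.3, 31.1 and 114 CPM in unselected libraries. Homocitrate synthase, the first enzyme of the pathway, has a pair of genes, and LYS20 and LYS21 did not share a highest strain in the start codon area. In the 5′ UTR 3 of the 7 lysine mRNAs passed and in the coding region 2 of 7. LYS4 passed in the coding region and was highest there in SY194, by 1.19 over SY182 on the log2 scale. At the start codon SY194 was −0.53 relative to SY182. In the coding region LYS4 had 307, 740 and 1118 CPM on eIF3a-, eIF3c- and eIF2β-bound 40S and 165, 195 and 230 CPM in the unselected libraries. The strain term averages over both kinds of library, and SY194 exceeded SY182 more among factor-bound ones, where strain and factor coincide.

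The largest strain differences were those of HIS4 and LEU2. HIS4, a multifunctional enzyme of the histidine pathway (YCL030C, chromosome III, 65934 to 68333), had 682, 74 and 1531 start codon counts on eIF3a-, eIF3c- and eIF2β-bound 40S, against 443, 13 and 441 counts in unselected libraries 1-1, 1-2 and 1-3. Both H25 libraries were low, at 25.8 CPM with eIF3c and 16.2 CPM without selection, beside 277 to 561 CPM in the other 4. Relative to SY182 the level in H25 was −3.73 on the log2 scale, and the level in SY194 was 4.53 above that in H25 (strain term, edgeR adjusted p = 9.11e-60). LEU2, the isopropylmalate dehydrogenase (YCL018W, chromosome III, 91324 to 92418), had 1143, 98 and 111 start codon counts in factor-bound and 799, 33 and 55 in unselected libraries. It was high in SY182 and low in both other strains, by −3.78 in H25 and −3.43 in SY194 on the log2 scale (strain term, edgeR adjusted p = 4.24e-69). LEU2, HIS3, TRP1 and LYS2 are genes whose mutant alleles are common markers of laboratory strains. TRP1, the phosphoribosylanthranilate isomerase, had 1, 20 and 21 start codon counts in factor-bound and 0, 3 and 5 in unselected libraries, too few for a test. In the coding region it had 10, 38 and 28 counts in factor-bound and 21, 72 and 34 in unselected libraries, lowest in SY182 in both groups, with a distance of 2.07 on the log2 scale between strains (strain term, edgeR adjusted p = 0.00014). HIS3 did not pass the strain test at the start codon, at a distance of 0.52 on the log2 scale (edgeR adjusted p = 0.159).

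Branches of the other pathways also differed by strain. LEU1, the isopropylmalate isomerase, was highest in H25, with 304 CPM at the start codon on eIF3c-bound 40S and 423 CPM in unselected library 1-2, against 126 to 176 CPM in the other 4. BAT2, the cytosolic branched-chain aminotransferase, was low in SY182, with 62.1 CPM on eIF3a-bound 40S and 49.5 CPM in unselected library 1-1, against 148 to 199 CPM in the other 4. ASN1, an asparagine synthetase, had 258, 345 and 829 CPM in factor-bound and 173, 229 and 599 CPM in unselected libraries. HOM3, the aspartate kinase at the head of the threonine and methionine branch, had 248, 159 and 423 CPM in factor-bound and 241, 112 and 388 CPM in unselected libraries. Of the aromatic mRNAs 3 of 10 tested passed, ARO1, ARO3 and ARO4, and of the serine, amide and sulfur mRNAs 3 of 9, SER33, ASN1 and ASN2.

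**Figure D3:**
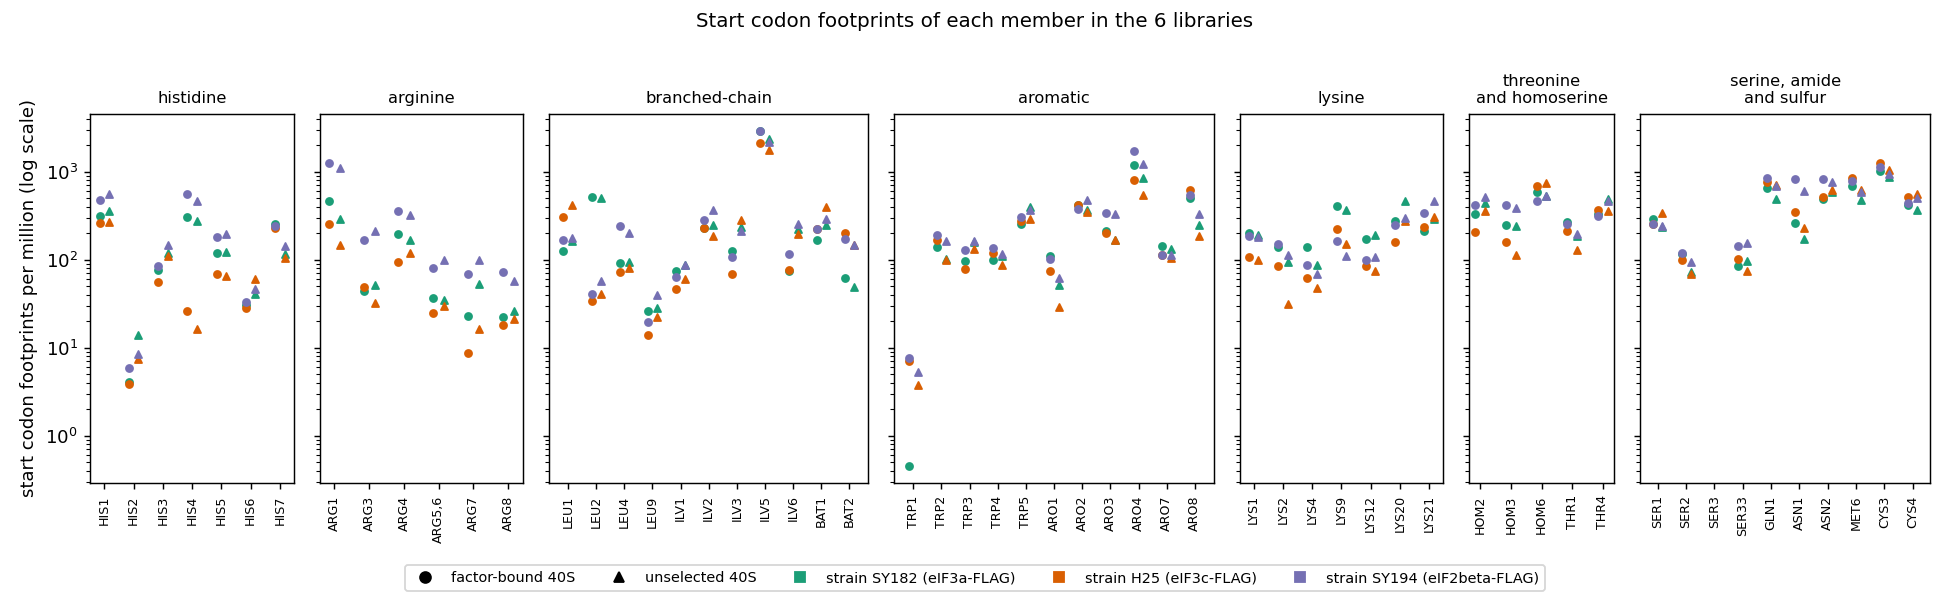
Start codon CPM (y axis, log scale) of the mRNAs of the list, by pathway. Circles are factor-bound and triangles unselected libraries, and colours mark the 3 tagged strains; values of 0 are not drawn. The arginine mRNAs drawn are all highest in strain SY194, and HIS4 is at 25.8 and 16.2 CPM in strain H25.

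Factor-bound and unselected 40S were then compared with each area scaled to its own total, so a difference below is relative to the typical gene of that area. The first counts given leave the library number out of the fit, and those with the number as a block stand beside them except at stop codons and in 3′ UTRs. With library sizes taken from all areas instead, the median gene moved by 1.29 in the 5′ UTR, 0.52 at the start codon, −0.8 in the coding region, −1.81 at the stop codon and −1.02 in the 3′ UTR on the log2 scale. Counts of calls in that scaling carry this shift of the whole table. The share of all genes called in it was not counted, so those counts do not set these mRNAs apart. The factor-bound group holds 3 different factors with 1 library each, so its spread includes differences between factors.

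In the 5′ UTR, 0 of 49 tested mRNAs rose and 1 fell (edgeR quasi-likelihood test, adjusted p under 0.05). Over all 2036 genes tested 0% rose and 1.67% fell. An unadjusted p under 0.05 was reached by 3 of the 49, and DESeq2 called 0 rises and 1 fall. The fall was that of HOM2, the aspartate semialdehyde dehydrogenase shared by the threonine and methionine branches (YDR158W, chromosome IV, 770357 to 771454), with 153, 78.2 and 113 CPM on eIF3a-, eIF3c- and eIF2β-bound 40S, against 334, 322 and 318 CPM in the unselected libraries. The groups did not overlap, and the log2 fold was −1.51 (SE 0.28, edgeR adjusted p = 0.0197). Its adjusted p was 0.0275 without the eIF3a-bound library and above 0.05, up to 0.141, without any of the other 5. The next lowest mRNAs were ARG7 at −0.81 and ILV1, threonine deaminase, at −0.69 on the log2 scale, and the highest were TRP5 at 0.56, LEU4 at 0.53 and THR4, threonine synthase, at 0.53, none past the threshold. With the library number as a block 2 rose and 1 fell, against 1.57% and 5.16% of all genes, the rises being LEU4 and THR4. With library sizes from all areas 37 rose and 0 fell, and HOM2 had a log2 fold of −0.19 that did not pass.

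At start codons, 2 of 56 tested mRNAs rose and 2 fell, against 1.34% and 5.12% of all 3868 genes. HIS7, which links glutamine hydrolysis to imidazole ring formation in histidine synthesis (YBR248C, chromosome II, 714807 to 716465), rose to 255, 227 and 239 CPM in factor-bound libraries, against 116, 106 and 142 CPM in unselected ones (log2 fold 0.98, SE 0.19, edgeR adjusted p = 0.019). ARO8 (YGL202W, chromosome VII, 116059 to 117561) rose to 508, 624 and 540 CPM, against 245, 187 and 334 CPM in unselected libraries (log2 fold 1.13, SE 0.23, edgeR adjusted p = 0.0231). ILV6, the regulatory subunit of acetolactate synthase (YCL009C, chromosome III, 104619 to 105548), fell to 74.7, 75.7 and 117 CPM, against 222, 197 and 256 CPM in unselected libraries (log2 fold −1.33, SE 0.23, edgeR adjusted p = 0.0136). ILV3 (YJR016C, chromosome X, 464451 to 466208) fell to 127, 68.7 and 106 CPM, against 233, 281 and 209 CPM in unselected libraries (log2 fold −1.26, SE 0.25, edgeR adjusted p = 0.0222). The groups of all 4 mRNAs were apart. Leaving out any of 5 libraries ended the call of HIS7, ARO8 and ILV3, with adjusted p up to 0.0957, 0.0974 and 0.0792, and leaving out any of 4 that of ILV6, up to 0.0688. For HIS7 and ARO8 only omission of unselected library 1-3 kept the call, for ILV3 only that of eIF3a-bound 40S, and for ILV6 that of eIF2β-bound 40S or unselected library 1-2.

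HIS2, histidinol phosphatase, at −1.15, and ARO1, the multifunctional enzyme of the shikimate pathway, at 0.99 on the log2 scale were next in size at start codons and did not pass. With the library number as a block 14 rose and 12 fell, against 12.6% and 16.2% of all genes. Among the added calls were rises of ARO1 (1.02), LYS2 (0.70) and ASN1 (0.54) and falls of ARG7 (−0.83), HIS3 (−0.81) and LYS20 (−0.60) on the log2 scale. With library sizes from all areas 11 rose and 1 fell, and ILV3 (−0.73) did not pass. Branched-chain mRNAs had a median of −0.34 and serine, amide and sulfur mRNAs one of 0.26 on the log2 scale, against 0.02 over all genes.

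**Figure D4:**
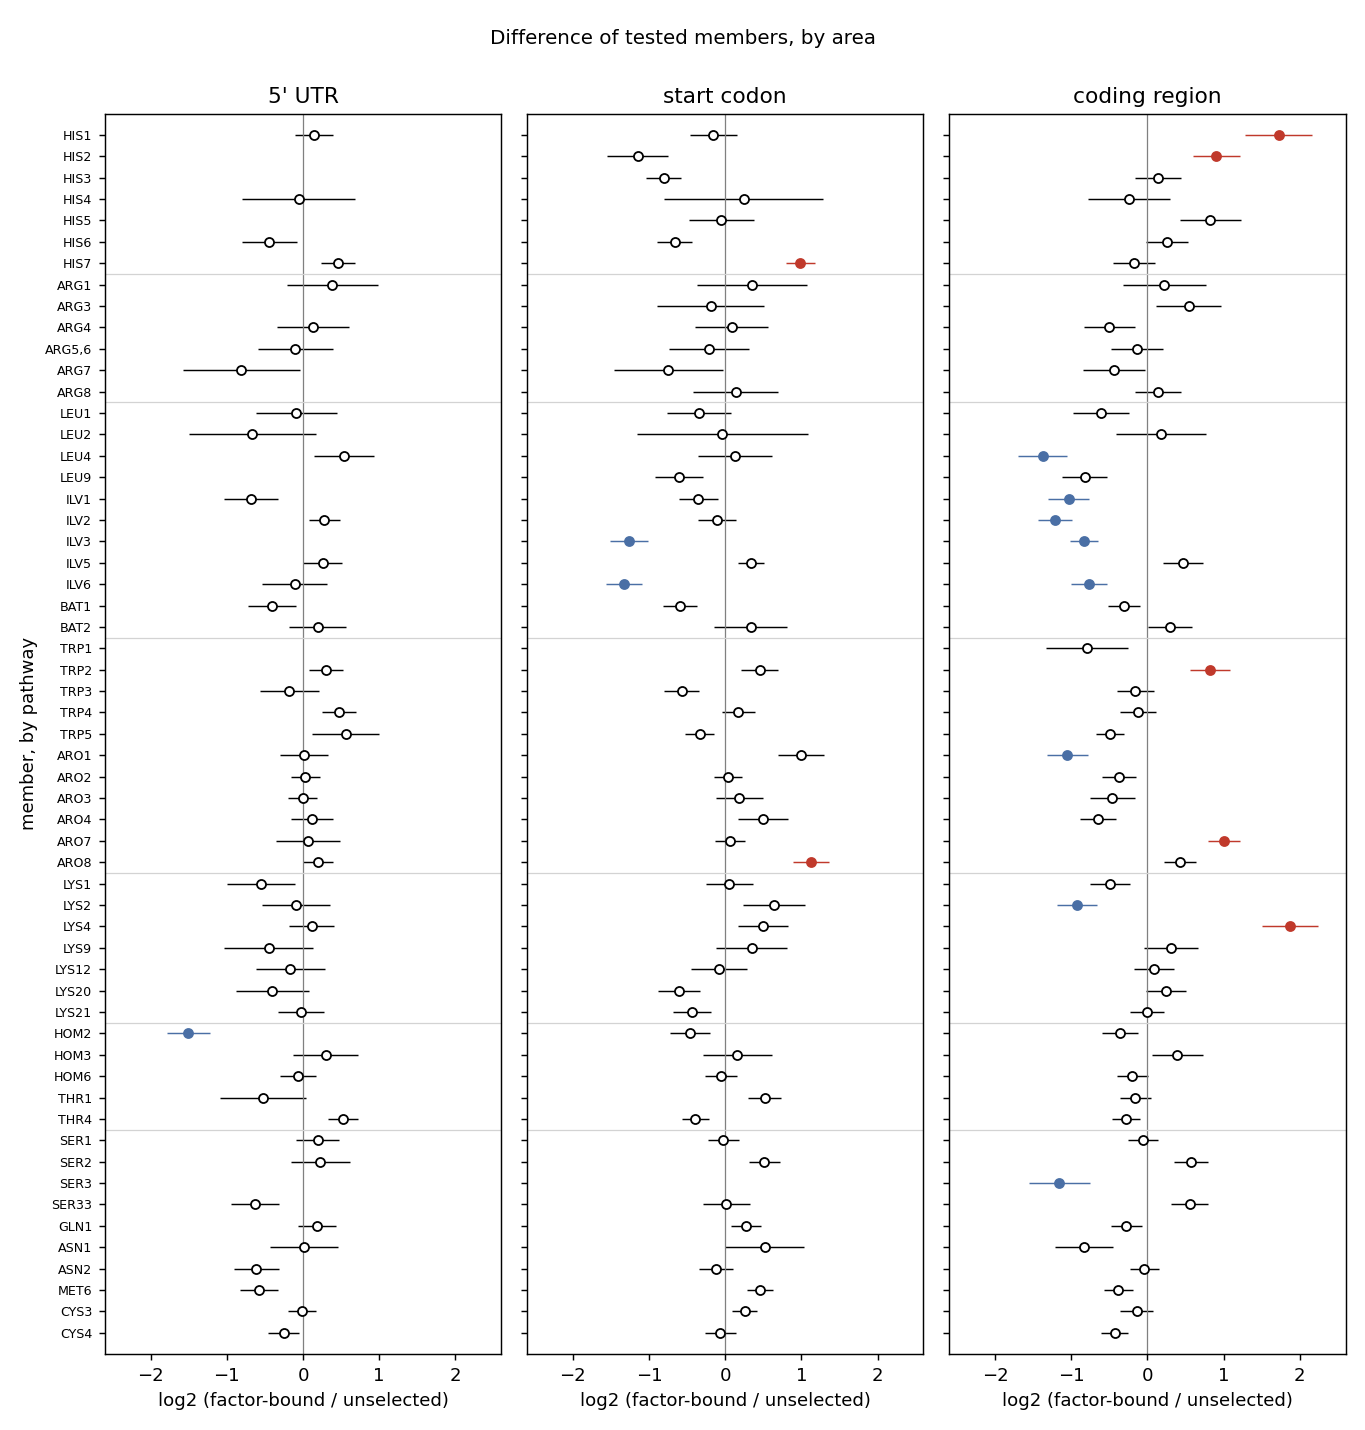
Log2 fold of factor-bound over unselected 40S (x axis) for tested mRNAs, in the 5′ UTR, start codon area and coding region (panels), with rows ordered by pathway and bars showing the standard error. Filled points passed an adjusted p of 0.05, red for higher and blue for lower in factor-bound libraries. Passing mRNAs number 1, 4 and 13 in the 3 panels.

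In coding regions, 5 of 58 mRNAs rose and 8 fell, against 14.4% and 11.8% of all 4797 genes. The share of rises was thus below that of all genes and the share of falls near it. The median was −0.16 on the log2 scale, against 0 over all genes. With the library number as a block 8 rose and 15 fell, against 19.9% and 17.2% of all genes, and with library sizes from all areas 1 rose and 36 fell. In that scaling LYS4 (0.99 on the log2 scale) kept its rise, HIS1 (0.79), ARO7 (0.2) and HIS2 (0.064) did not pass, and TRP2 was at −0.034.

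Histidine and lysine enzymes were among the rises in the coding region. LYS4, the mitochondrial homoaconitase (YDR234W, chromosome IV, 931129 to 933210), had 307, 740 and 1118 CPM on eIF3a-, eIF3c- and eIF2β-bound 40S, against 165, 195 and 230 CPM in the unselected libraries. The groups were apart, and the log2 fold was 1.87 (SE 0.37, edgeR adjusted p = 0.00325). HIS1, the ATP phosphoribosyltransferase that starts histidine synthesis (YER055C, chromosome V, 264892 to 265785), had 1852, 1458 and 5620 CPM in factor-bound and 816, 572 and 1313 CPM in unselected libraries. All 3 factor-bound values were higher, the one with eIF2β most (log2 fold 1.72, SE 0.44, edgeR adjusted p = 0.0132). Without the eIF2β-bound library its log2 fold was 0.87 (adjusted p = 0.0539), and DESeq2 did not call it. ARO7, chorismate mutase, had 252, 191 and 227 CPM in factor-bound and 125, 101 and 106 CPM in unselected libraries (log2 fold 1.01, SE 0.21, edgeR adjusted p = 0.00409).

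TRP2 rose by 0.82 (SE 0.26, edgeR adjusted p = 0.0371) and HIS2 by 0.90 (SE 0.31, edgeR adjusted p = 0.0473) on the log2 scale in the coding region. TRP2 lost its call without eIF2β-bound 40S or without unselected library 1-1 or 1-2, with adjusted p up to 0.152. HIS2 lost it without any library other than eIF3a-bound 40S, with adjusted p up to 0.158, and with DESeq2.

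The branched-chain pathway supplied 5 of the 8 falls in the coding region, and none of its 11 mRNAs rose; its median was −0.76 on the log2 scale. LEU4, the main alpha-isopropylmalate synthase (YNL104C, chromosome XIV, 424895 to 426754), fell to 70.1, 108 and 168 CPM on factor-bound 40S, against 258, 219 and 416 CPM in unselected libraries (log2 fold −1.37, SE 0.32, edgeR adjusted p = 0.00837). ILV2 fell to 174, 168 and 212 CPM, against 396, 359 and 529 CPM in unselected libraries (log2 fold −1.21, SE 0.22, edgeR adjusted p = 0.00221). ILV3 had 314, 297 and 321 CPM in factor-bound and 567, 499 and 588 CPM in unselected libraries, a log2 fold of −0.83 (SE 0.18, edgeR adjusted p = 0.00649). Groups of these 3 mRNAs were apart, and their calls held in each of the 6 fits without a library. ILV1 fell by 1.03 on the log2 scale (edgeR adjusted p = 0.016) and ILV6 by 0.76 (edgeR adjusted p = 0.0356). The call of ILV1 was lost without unselected library 1-3 (adjusted p = 0.0649). That of ILV6 was lost without eIF3a- or eIF2β-bound 40S or without unselected library 1-1 or 1-3, with adjusted p up to 0.158. ILV5 had 3525, 1449 and 2276 CPM in factor-bound and 1886, 1457 and 1906 CPM in unselected libraries, and its groups overlapped.

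The remaining falls in the coding region were those of ARO1, LYS2 and SER3. ARO1 had 219, 183 and 214 CPM on factor-bound 40S, against 466, 252 and 552 CPM in unselected libraries (log2 fold −1.05, SE 0.27, edgeR adjusted p = 0.0137). LYS2 had 235, 146 and 147 CPM, against 420, 256 and 322 CPM in unselected libraries (log2 fold −0.92, SE 0.26, edgeR adjusted p = 0.0202). ARO1 lost its call without unselected library 1-3 (adjusted p = 0.0681), and LYS2 without eIF3c- or eIF2β-bound 40S or unselected library 1-1, with adjusted p up to 0.0891. SER3 had 8, 26 and 7 counts in factor-bound and 34, 34 and 25 in unselected libraries (log2 fold −1.16, SE 0.4, edgeR adjusted p = 0.0493), was not called by DESeq2 and kept its call, of the 6 fits without a library, only in that without eIF3c-bound 40S. In the reference annotation the noncoding transcript SRG1 overlaps the start of SER3 on the same strand, so counts there cannot be assigned to SER3 with certainty.

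Longer genes of the list tended to have lower coding region folds. The relation was not computed over all genes, so it cannot be called particular to the list. Across the 58 mRNAs, which share the 6 libraries, Spearman's rho between gene length and log2 fold was −0.41, a description over genes that are not independent. The 5 mRNAs that rose had a median length of 1008 bp and the 8 that fell one of 1809 bp. LYS4, at 2082 bp, was the longest of the rises, and ILV6, at 930 bp, the shortest of the falls.

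**Figure D5:**
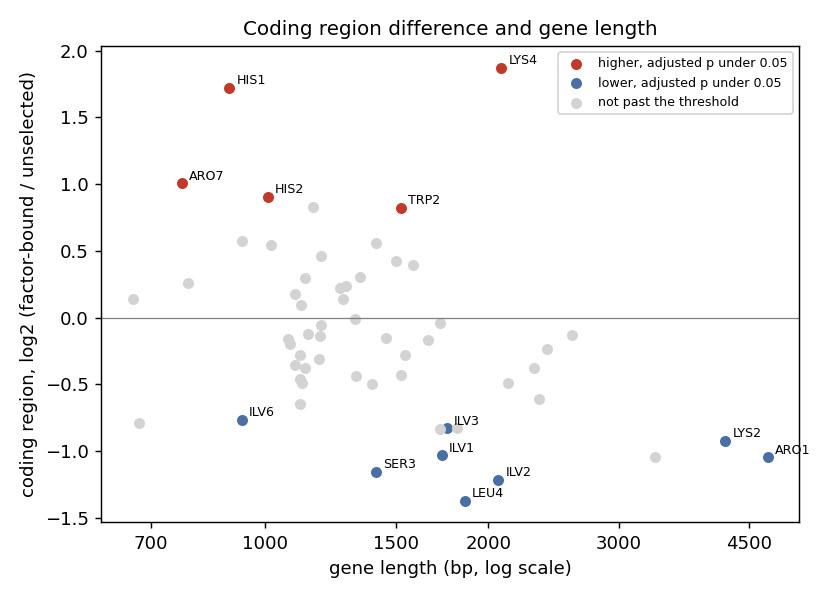
Coding region log2 fold of factor-bound over unselected 40S (y axis) against gene length (x axis, bp, log scale) for the 58 mRNAs. Red points rose and blue points fell at an adjusted p under 0.05. The 8 lower mRNAs span 930 to 4767 bp and the 5 higher ones 771 to 2082 bp.

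The ratio of areas within an mRNA does not depend on how much of that mRNA a library holds. Each area was scaled to its own total, so the log2 changes below are relative to the typical gene. Footprint ratios printed beside them are unscaled and include the shift of the whole table. The 5′ UTR rose against the start codon in 2 of 49 mRNAs and fell in 2, against 2.38% and 2.85% of all 1929 genes. ILV6 had 0.218, 0.226 and 0.319 5′ UTR footprints per start codon footprint on eIF3a-, eIF3c- and eIF2β-bound 40S. Its ratios in the unselected libraries were 0.065, 0.0316 and 0.0861, and rest on few 5′ UTR counts, 23, 5 and 21. Its log2 change was 1.37 (SE 0.35, edgeR adjusted p = 0.0287). THR4 had 0.747, 0.647 and 1.14, against 0.236, 0.31 and 0.238 in the unselected libraries (log2 change 1.05, SE 0.21, edgeR adjusted p = 0.00665). Both ratios were apart between the groups. In ARO8 and in MET6, the methionine synthase, the ratio fell relative to the typical gene, by 0.81 (edgeR adjusted p = 0.0447) and 0.91 (edgeR adjusted p = 0.0437) on the log2 scale. THR4 lost its call without unselected library 1-1 (adjusted p = 0.0565). ILV6 and ARO8 lost theirs without eIF3c- or eIF2β-bound 40S or unselected library 1-1 or 1-2, with adjusted p up to 0.142 and 0.289, and MET6 without any library but eIF3a-bound 40S, up to 0.302. With the library number as a block 3 mRNAs rose and 3 fell, against 95 and 127 of all 1929 genes. With library sizes from all areas 11 mRNAs rose and 0 fell.

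The coding region rose against the start codon in 7 of 56 mRNAs and fell in 10, against 15.4% and 11.5% of all 3776 genes. The share of rises was below that of all genes and the share of falls above it. With the library number as a block 9 rose and 14 fell, against 682 and 550 of all 3776 genes. Histidine mRNAs made up 4 of the 7 rises. These were HIS1 (1.71), HIS2 (2.08), HIS3 (1.05) and HIS5, the histidinol-phosphate aminotransferase (0.83 on the log2 scale), with edgeR adjusted p of 9.24e-05, 0.00454, 0.0107 and 0.0143. HIS7 went the other way (−1.17, edgeR adjusted p = 0.00415). The fold of HIS2 rests on few counts, with 9, 11 and 16 start codon counts in factor-bound and 22, 6 and 8 in unselected libraries. Its coding region footprints per start codon footprint were 4.91 ± 1.83 in factor-bound and 3.5 ± 1.58 in unselected libraries (SD, n = 3 each), so the spreads overlapped. The median over the 7 histidine mRNAs was 0.93 on the log2 scale, against 0.02 over all genes. HIS1 had 1.71 ± 0.453 coding region footprints per start codon footprint in factor-bound and 1.34 ± 0.165 in unselected libraries (SD, n = 3 each), so its spreads overlapped too. ARO7 (0.98), LYS20 (0.91) and LYS4 (1.35) were the other rises.

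With library sizes from all areas 0 rose and 45 fell in this ratio. HIS1 and HIS2 did not pass in that scaling. HIS3, HIS5, ARO7, LYS4 and LYS20 then had negative folds that did not pass, so their rises are relative to the typical gene. LYS4 lost its call without any library but eIF3a-bound 40S (adjusted p up to 0.256), HIS2 without unselected library 1-1 (0.072) and HIS3 without unselected library 1-2 (0.0699). HIS5 lost it without eIF2β-bound 40S or unselected library 1-1 or 1-3 (up to 0.0814).

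ARO1 had the lowest fold of this ratio relative to the typical gene (log2 change −2, SE 0.24, edgeR adjusted p = 1.37e-05). Unscaled, it had 0.514 ± 0.112 coding region footprints per start codon footprint on factor-bound 40S and 5.3 ± 0.604 in unselected libraries (SD, n = 3 each). The unscaled ratios here include the shift of the whole table, and the log2 changes do not. LYS2 had 0.35 ± 0.139 in factor-bound and 3.1 ± 1.84 in unselected libraries (log2 change −1.60, edgeR adjusted p = 0.00125). ILV2 had 0.174 ± 0.0258 in factor-bound and 0.983 ± 0.208 in unselected libraries (log2 change −1.10, edgeR adjusted p = 0.00134). LEU4 (−1.40), ASN1 (−1.33), ARO4 (−1.07), MET6 (−0.81) and ARO8 (−0.71 on the log2 scale) also fell. ARO8 lost it without eIF3c-bound 40S or any unselected library (up to 0.16), and MET6 without unselected library 1-3 (0.0531). All 6 calls of ARO1, LYS2, ILV2, LEU4, ASN1 and ARO4 held in each fit without a library.

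Pairs of genes for the same reaction differed in level and in part in fold. ARO4 had 1184, 795 and 1723 CPM at the start codon in factor-bound and 848, 550 and 1230 CPM in unselected libraries. ARO3, the other DAHP synthase, had 212, 203 and 339 CPM in factor-bound and 169, 169 and 327 CPM in unselected libraries. LEU9, the second alpha-isopropylmalate synthase, had 25.8, 13.9 and 19.8 CPM at the start codon in factor-bound and 28.2, 22.4 and 39.8 CPM in unselected libraries. In the coding region its log2 fold was −0.82 (edgeR adjusted p = 0.0537, and past the threshold with the block), in the direction of LEU4. BAT1, the mitochondrial branched-chain aminotransferase, was 206 ± 33.9 CPM at the start codon in factor-bound and 311 ± 75.4 CPM in unselected libraries (SD, n = 3 each), and BAT2 was 144 ± 72.2 and 115 ± 56.8 CPM. SER33 had 85.2, 102 and 142 CPM at the start codon in factor-bound and 96.4, 73.4 and 156 CPM in unselected libraries, where its partner SER3 had none. ASN2 was at 607 ± 181 CPM in factor-bound and 659 ± 92.2 CPM in unselected libraries (SD, n = 3 each). Counting of reads that match both genes of a pair was not given in the sources used here, so the split within a pair is uncertain.

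Few footprints fell beyond the coding region. At stop codons 0 of 21 tested mRNAs rose and 1 fell, against 14.3% and 10.3% of all 497 genes; 1 of the 21 had an unadjusted p under 0.05, and DESeq2 also called 0 rises and 1 fall. ILV3 had 4, 9 and 2 counts there in factor-bound and 38, 32 and 50 in unselected libraries (log2 fold −1.95, SE 0.52, edgeR adjusted p = 0.0162). It lost its call without unselected library 1-3 (adjusted p = 0.0613). The next lowest were MET6 at −1 and ARG1 at −0.9, and the highest THR4 at 0.82, ARO8 at 0.79 and ARO1 at 0.62 on the log2 scale, none past the threshold. In 3′ UTRs 0 of 26 rose and 0 fell, against 4% and 2.21% of all 725 genes; 3 of the 26 had an unadjusted p under 0.05, and DESeq2 called 0. LYS21 at 1.00, CYS4, cystathionine beta-synthase, at 0.73 and HIS4 at 0.52 were highest, and LYS20 at −0.78, ILV6 at −0.73 and ILV5 at −0.64 lowest on the log2 scale. With library sizes from all areas 0 rose and 19 fell at stop codons, and 0 rose and 9 fell in 3′ UTRs.

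A single factor has no replicate and was compared with the unselected 40S of the matching strain. At start codons the median log2 ratio over 55 mRNAs with at least 10 counts was 0.05 for eIF3a, 0.1 for eIF3c and −0.03 for eIF2β, against −0.01, −0.05 and −0.02 over 2585 genes. In coding regions it was −0.06, −0.11 and −0.31, against 0.01, −0.01 and −0.02 over 3777 genes. HIS7 and ARO8 lay above 0 at start codons for each factor, with 1.13, 1.1 and 0.75 for HIS7 and 1.05, 1.74 and 0.69 for ARO8 on the log2 scale, and ILV6 below 0 with −1.57, −1.38 and −1.12. LYS4 in the coding region had 0.89 with eIF3a, 1.92 with eIF3c and 2.28 with eIF2β on the log2 scale. The groups of HIS7, ARO8, ILV6 and LYS4 were apart in these same libraries, which fixes the sign of each ratio, so the shared signs are no separate evidence.

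Another 34 genes of amino acid metabolism and its regulation outside the list were tested in the same fits. In the edgeR test 0 of 17 passed in the 5′ UTR, where 0% of all genes rose and 1.67% fell. At the start codon 0 of 30 passed, where 1.34% of all genes rose and 5.12% fell. An unadjusted p under 0.05 was reached by 1 of the 17 and 3 of the 30. In the coding region 2 rose and 7 fell of 33, where 14.4% of all genes rose and 11.8% fell. With the library number as a block 1 rose and 4 fell of 30 at the start codon, against 12.6% and 16.2% of all genes. In the coding region 2 rose and 13 fell of 33 with the block, against 19.9% and 17.2% of all genes. In the 5′ UTR 0 of 17 passed with the block, where 1.57% of all genes rose and 5.16% fell. Without the block, the rises in the coding region were in MET16 (1.67) and MET14 (0.88), enzymes of sulfate assimilation. The falls there included LEU3 (−1.15), the regulator of leucine genes, and MET10 (−1.14 on the log2 scale), a sulfite reductase subunit. At the stop codon 0 of 6 rose and 1 fell, against 14.3% and 10.3% of all genes. The fall was in GDH1 (−1.67 on the log2 scale), a glutamate dehydrogenase. In the 3′ UTR 0 of 7 rose and 2 fell, against 4% and 2.21% of all genes. These were PRO3 (−1.93), of proline synthesis, and GLY1 (−1.53 on the log2 scale), threonine aldolase. The strain term passed for 9 of 30 at the start codon, 30%, against 13.5% of all genes, for 2 of 17 in the 5′ UTR, 11.8%, against 12.8%, and for 2 of 33 in the coding region, 6.06%, against 3.92%. GCN4 itself had log2 folds of 0.21 in the 5′ UTR, 0.26 at the start codon and 0.07 in the coding region (edgeR adjusted p = 0.775, 0.744 and 0.841).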

How the data were processed

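Per the labels' protocols, 40S footprints came from formaldehyde-fixed, RNase I-treated lysates, with anti-FLAG immunoprecipitation for factor-bound samples. Build R64, TopHat2 2.1.0, Bowtie2 2.2.6, Bowtie 1.2.2 and CASAVA 1.8 appear in the submitters' processing notes without a role. The authors deposited raw whole-number counts per gene in 5 areas for 6 libraries. The rule for assigning footprints to areas, strand use and the handling of multiply mapping or duplicate reads were not given in the sources used here. A second deposited file by the authors, a list of cap sites, holds genomic positions. A table column named eIF2α was taken as eIF2β-bound library 1-3 of the labels. Columns without a sample numbered 0, and 42 of 5818 gene IDs matched no locus tag.

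Tests per area used R 4.3.3 with limma 3.58.1 and edgeR 4.0.16: filterByExpr, TMM scaling within the area, quasi-likelihood test of 3 factor-bound against 3 unselected libraries, Benjamini-Hochberg adjustment over all genes tested, threshold 0.05. Ratios of areas were tested as an interaction with a coefficient per library. Standard errors were obtained as log2 fold over √F. The fits were tested on simulated data. Alternatives were the replicate block, DESeq2 1.42.0, other scalings, no filter and omission of each library. The strain term was added after the data were seen. Shares carry 95% Wilson intervals, which cover counting error only. Tables and figures used Python 3.11.15, NumPy 2.4.6, pandas 2.3.3, SciPy 1.17.1 and matplotlib 3.10.9.

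A library number stands for 1 strain in the factor-bound and unselected sets. The correlation of same-numbered libraries, as deviations from their group's mean, was positive throughout (0.445, 0.405 and 0.405 in 5′ UTRs, 0.589, 0.492 and 0.428 at start codons, 0.32, 0.264 and 0.256 in coding regions, 0.267, 0.148 and 0.29 at stop codons, 0.274, 0.183 and 0.295 in 3′ UTRs), so the numbers pair the libraries. The reported calls come from the fit without this block, and so do the fits that leave out a library. Counts of calls with the block are given beside them except at stop codons and in 3′ UTRs. The mRNAs, lists and tests were chosen with earlier results of these data known. Named are all mRNAs past a threshold, the 3 largest changes per area in each direction, the mRNA with most footprints per pathway, 4 marker genes, pairs of genes for the same reaction, mRNAs without counts in an area, and the ends of the 5′ UTR to start codon ratio; mRNAs that differ by strain were named after their values were seen. The values of 1 mRNA are counted but not reported here. No sequences are shown.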

Additional observations from a re-analysis of the deposited data

How the results depend on the processing

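Calls relative to the typical gene depended on the pairing of strains, on the scaling and on single libraries. The replicate block moved the number of mRNAs called to 3 in 5′ UTRs, 26 at start codons and 23 in coding regions (main values 1, 4 and 13) and no other count of calls by more than 1.5 times. All 40 single calls held with the block and without a filter on low counts. Library sizes from all areas gave 37, 12, 37, 19 and 9 calls in 5′ UTRs, start codons, coding regions, stop codons and 3′ UTRs, 11 for the 5′ UTR and 45 for the coding region against the start codon, and 11 for the strain in coding regions (20 before). The share of all genes called in that scaling was not counted. Under that scaling 6 calls changed sign, TRP2 in the coding region (−0.034) and, for the coding region against the start codon, HIS3 (−0.304), HIS5 (−0.56), ARO7 (−0.39), LYS4 (−0.048) and LYS20 (−0.46 on the log2 scale). DESeq2 kept 16 of 19 area calls and lost HIS1, HIS2 and SER3 in the coding region. Without 1 library at a time the counts ranged from 0 to 1 in 5′ UTRs, 0 to 2 at start codons, 8 to 15 in coding regions, 0 to 1 at stop codons, 0 to 0 in 3′ UTRs, 0 to 5 for the 5′ UTR and 12 to 20 for the coding region against the start codon. Those fits have fewer libraries, and the cause of the losses was not tested. The difference between factor-bound and unselected libraries in area shares of all 58 mRNAs kept its direction in every alternative; within pathways it changed sign once, in the branched-chain start codon share (−1.99 without ILV5, 2.99 with it). As the median mRNA's own share it was 7.48 percentage points in 5′ UTRs, 13.4 at start codons and −1.33 at stop codons, against 16, 6.74 and −1.52 for summed counts. Without 1 library it ranged from 12.6 to 18 in 5′ UTRs, 5.53 to 8.44 at start codons, −21.1 to −18.1 in coding regions, −1.58 to −1.48 at stop codons and −1.81 to −1.43 in 3′ UTRs. Depth limits stop codons and 3′ UTRs, where 21 and 26 of the 58 mRNAs had enough counts for a test.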
